A study of Ovis aries with 16 samples.

Results

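SULF2 and the enzymes and carrier proteins of heparan sulfate were followed in peripheral lung of 3-day-old lambs. Of 10 genes asked for, 7 had probe sets with that 1 gene symbol in the annotation of the array, namely SULF2, EXT1, EXT2, HS6ST1, HPSE, HSPG2 and GPC3. They were read by 10 of the 24016 probe sets tested, or 7 of the 9155 genes with a symbol. SULF1, NDST1 and HS2ST1 had no such probe set and were not analysed here. SULF2 was selected on its measured difference between the groups in these same arrays, and the other genes were set beside it as parts of the same pathway.

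Total RNA of 8 shunt lambs and 8 control lambs (all Ovis aries) was labelled and hybridized, 1 array for each. In the shunt lambs an 8.0 mm wide and 2 mm long vascular graft had been sewn before birth, 9 ± 6 days before term, to join the ascending aorta to the main pulmonary artery, which models a heart defect that raises blood flow through the lung. Control lambs had a sham operation, and both groups were born spontaneously. The labels give no sex or breed, and no lamb is described individually. The probe sets were designed for cattle genes, so a sequence difference between species can lower a signal. The comparison asked which genes differed at this age, and values are log2 signals from RMA, a method that corrects background, equalizes the arrays and merges the probes of each set into 1 value.

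Heparan sulfate is a long sugar chain that hangs from core proteins on the cell surface and in basement membranes. EXT1 and EXT2 together build the chain, further enzymes add sulfate groups in patterns, and growth factors such as the fibroblast and vascular endothelial growth factors bind those patterns. SULF2 is an extracellular sulfatase that removes sulfate groups at the 6-O position of finished chains. HS6ST1 adds groups at that position, and heparanase, the product of HPSE, cuts the chain. In lung the chains lie in vessel walls and alveolar basement membranes.

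The lung label was checked with epithelial markers. The surfactant gene SFTPC averaged 13.29 ± 0.13 in shunt lambs and 13.44 ± 0.15 in control lambs (SD, n = 8 each), at the 99.7th percentile of the probe sets, and the 4 probe sets of SFTPB and AGER were between percentiles 91.0 and 99.0. AQP5 was at percentile 88.2, and SCGB1A1 had no probe set with its symbol. Mean correlations of an array with the other 15 ran from 0.991 to 0.993 in shunt arrays and from 0.983 to 0.993 in control arrays, the lowest being control replicate 2. Array medians were 7.135 ± 0.009 in shunt and 7.158 ± 0.016 in control (SD, n = 8 each). No scan date or hybridization batch was given, so a batch could not be tested. Each array was taken as 1 lamb from its numbered title.

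SULF2 was higher in every shunt lamb than in any control lamb. Its log2 signal was 6.72 at the lowest, 6.87 at the median and 7.02 at the highest in shunt lambs, against 6.33, 6.53 and 6.67 in control lambs. The groups did not overlap, and shunt replicate 7, the lowest of its group, lay 0.05 above control replicate 1, the highest of its group. The means were 6.88 ± 0.10 in shunt and 6.51 ± 0.12 in control (SD, n = 8 each). The difference of 0.37 ± 0.06 (SE) on the log2 scale is 1.29-fold, with a 95% confidence interval from 1.19 to 1.41. These are the values for which SULF2 was chosen, so they are a description and support nothing further. In whole lung, more RNA per cell and more cells that carry it cannot be told apart.

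The SULF2 signal was dim and rested on a single probe set. Its mean over all 16 arrays, 6.70, was at percentile 41.4 of the probe sets and at percentile 22.1 of the genes when each gene is read by its brightest probe set. No detection call was used, so its height above background is not known, and no second SULF2 probe set could be set beside it. Among the 1000 probe sets nearest to it in level, from 6.60 to 6.80, the median difference was -0.038. Over all probe sets the median difference was -0.014.

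**Figure D1:**
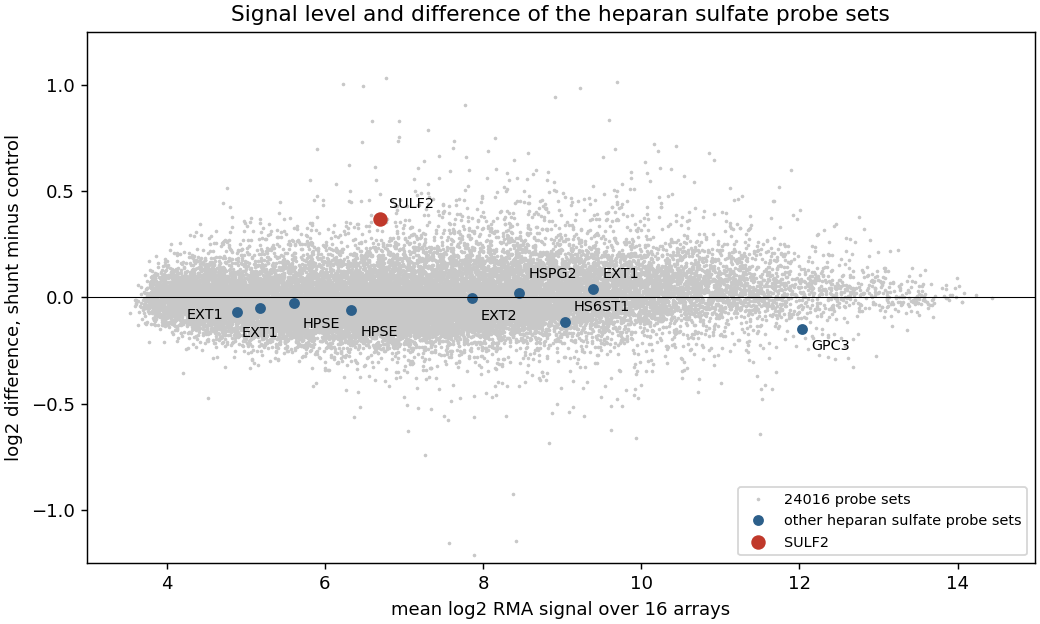
Mean log2 RMA signal over the 16 arrays (horizontal axis) and log2 difference, shunt minus control (vertical axis), for all 24016 probe sets in grey, with SULF2 in red and the 9 probe sets of the other 6 genes in blue. SULF2 lies at 0.37 in the dimmer part of the range, and the other 9 lie between -0.15 and 0.04.

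In the test over all 24016 probe sets (limma, Benjamini-Hochberg adjustment at 0.05), 16 were higher in shunt, or 0.0666% of those tested, and 1 was lower, or 0.00416%. SULF2 was among the 16, which is how it came to be chosen, so nothing is read from its call, and 0 of the other 9 probe sets passed in either direction. Its call was lost without control replicate 5 and without shunt replicate 2, 3, 5 or 8, while its difference over the 16 fits that left out 1 array ran from 0.343 to 0.393. Without control replicate 2, the array least like the others, it was 0.363 and the call was made. Groups that did not overlap with shunt above were found for 16 probe sets, also 0.0666%, but not all of these passed the test. Of all probe sets, 5.33% had 8 of 8 shunt lambs above the control mean.

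The other 9 probe sets overlapped between the groups in every case. Of these, 2 had a difference above 0 and 7 below, with a median of -0.05, where 44.9% of all probe sets were above 0. None had an unadjusted p under 0.05, the smallest being 0.12, where 13.7% of all probe sets did. Their adjusted p-values ran from 0.469 to 0.978 (limma).

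EXT1 and EXT2, the pair of glycosyltransferases that polymerize the chain, gave small differences. The brightest EXT1 probe set read 9.26, 9.43 and 9.56 (lowest, median, highest) in shunt lambs and 9.19, 9.36 and 9.80 in control lambs. The shunt values lay inside the control range, which was stretched by control replicate 5. Its difference was 0.04 ± 0.08 (SE), with a 95% interval from -0.12 to 0.20 (adjusted p = 0.828). The second EXT1 probe set averaged 5.15 ± 0.11 in shunt and 5.20 ± 0.29 in control (SD, n = 8 each), a difference of -0.05 ± 0.10. The third averaged 4.85 ± 0.08 in shunt and 4.92 ± 0.06 in control, a difference of -0.07 ± 0.05. Both of these were dim, at percentiles 15.5 and 11.8 of the probe sets. Without control replicate 5 the differences of the 3 EXT1 probe sets were 0.104, 0.0499 and -0.0806, so the second changed sign.

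EXT2 read 7.76, 7.84 and 8.01 (lowest, median, highest) in shunt lambs, against 7.65, 7.86 and 8.01 in control lambs. The groups covered nearly the same range, and the difference was -0.0046 ± 0.06 (SE), with a 95% interval from -0.12 to 0.11 (adjusted p = 0.978). In linear terms that interval runs from 0.92-fold to 1.08-fold.

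HS6ST1 is an enzyme whose product SULF2 edits, and its relatives HS6ST2 and HS6ST3 had no probe set with their symbols. HS6ST1 read 8.68, 9.01 and 9.16 (lowest, median, highest) in shunt lambs and 8.93, 9.10 and 9.29 in control lambs. Of the shunt lambs, 3 lay below the lowest control and none above the highest. The means were 8.98 ± 0.16 in shunt and 9.09 ± 0.12 in control (SD, n = 8 each), a difference of -0.11 ± 0.07 (SE) with an interval from -0.26 to 0.03. It had the smallest adjusted p of the 9 probe sets, 0.469 (limma), and 5 of 8 shunt lambs were under the mean of the controls.

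HPSE, the gene of heparanase, was read by a pair of dim probe sets. The brighter one was 6.16, 6.32 and 6.43 (lowest, median, highest) in shunt lambs and 6.20, 6.38 and 6.47 in control lambs. The ranges overlapped, with 2 shunt lambs just below the lowest control. Its difference was -0.06 ± 0.05 (SE, adjusted p = 0.624). The dimmer one averaged 5.59 ± 0.10 in shunt and 5.62 ± 0.09 in control (SD, n = 8 each), a difference of -0.02 ± 0.05 (adjusted p = 0.860). They were at percentiles 34.1 and 21.7 of the probe sets.

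The core proteins among the 7 genes were HSPG2 and GPC3. HSPG2 encodes perlecan, a large proteoglycan of basement membranes, and read 8.20, 8.43 and 8.95 (lowest, median, highest) in shunt lambs and 8.23, 8.42 and 8.68 in control lambs. Shunt replicates 1 and 7 lay above all controls, shunt replicates 2 and 4 lay just below all controls, and the medians were nearly the same. The difference was 0.02 ± 0.10 (SE, interval -0.18 to 0.23, adjusted p = 0.937). Without shunt replicate 1 it was -0.0467.

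GPC3, a glypican held at the cell surface by a lipid anchor, read 11.16, 12.04 and 12.42 (lowest, median, highest) in shunt lambs, against 11.48, 12.15 and 12.69 in control lambs. The lowest value was that of shunt replicate 7 and the highest that of control replicate 5. The means were 11.96 ± 0.38 in shunt and 12.11 ± 0.37 in control (SD, n = 8 each). The difference of -0.15 ± 0.17 (SE, adjusted p = 0.703) had the widest interval of the 10 probe sets, from -0.49 to 0.20. With 1 array left out the difference ran from -0.237, without control replicate 3, to -0.0317, without shunt replicate 7.

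**Figure D2:**
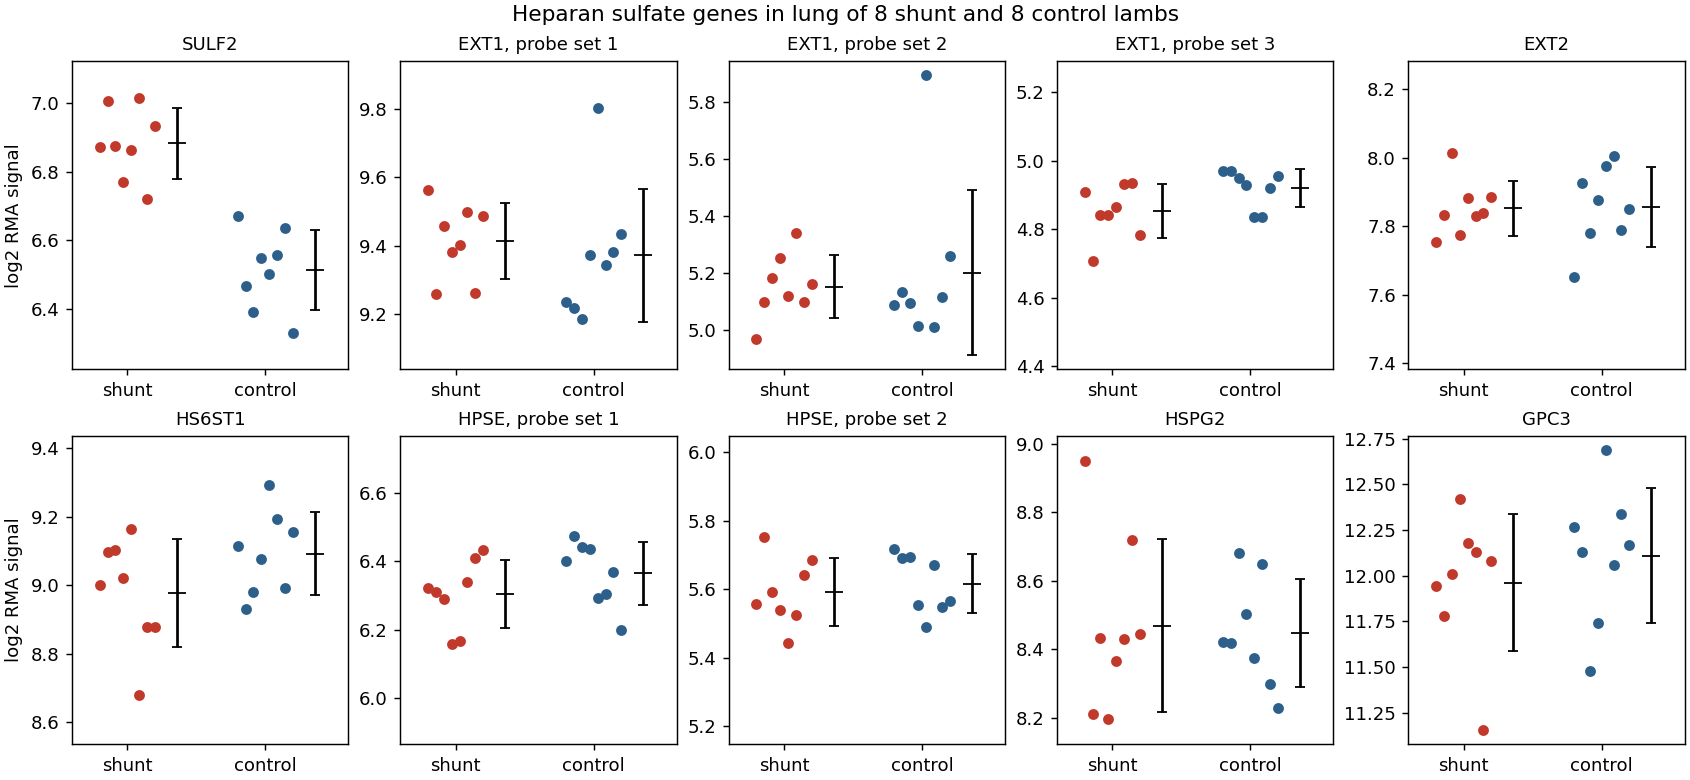
Log2 RMA signal of the 10 probe sets of 7 heparan sulfate genes, with 1 point for each of 8 shunt lambs (left, red) and 8 control lambs (right, blue), and the mean with its SD as a black bar. The vertical axes differ between panels, and probe sets of 1 gene are numbered from bright to dim. The groups are apart only for SULF2, and control replicate 5 stands above the others in EXT1 probe sets 1 and 2, at 9.80 and 5.90.

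Within the groups SULF2 did not track the other 6 genes in a way that passed a test. Levels were compared over the 16 lambs after the group means were subtracted, so the difference between the groups plays no part. Pearson's r with SULF2 was 0.31 for GPC3 (Spearman's rho 0.19), 0.25 for HPSE (0.19), 0.06 for EXT1 (0.16), -0.10 for HS6ST1 (-0.10), -0.14 for EXT2 (-0.11) and -0.15 for HSPG2 (-0.06). The smallest permutation p of the 6 was 0.26 for Pearson's r (adjusted p = 0.85) and 0.49 for Spearman's rho (adjusted p = 0.84), both for GPC3. Without control replicates 1 and 8, the lambs farthest from the SULF2 median, r was 0.36 for GPC3 and 0.0 for HPSE, and it lay between -0.34 and 0.25 for the other 4.

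Probe sets of the same gene were compared in the same way. The HPSE pair had r = 0.56 (permutation p = 0.032) and rho = 0.54 (permutation p = 0.043) over 16 lambs, and neither passed after adjustment over the 4 pairs compared (adjusted p = 0.09 for r and 0.17 for rho). Without the 2 lambs farthest from the median, r was 0.57. The EXT1 probe sets 1 and 2 had r = 0.73 (permutation p = 0.045, adjusted p = 0.09) and rho = 0.39 (permutation p = 0.12, adjusted p = 0.24). It did not hold without control replicates 3 and 5, the lambs farthest from the median, where r was 0.19. The third EXT1 probe set had r = -0.21 with the first and -0.23 with the second (permutation p = 0.41 and 0.36).

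By the same measure the 6 genes most like SULF2 among 9154 were LURAP1L (r = 0.77, rho = 0.79), LTF, which encodes the iron-binding protein lactoferrin (r = 0.75, rho = 0.71), ATP6V0B, a subunit of the vacuolar proton pump (r = 0.72, rho = 0.74), PABIR1 (r = 0.72, rho = 0.69), TOMM70, a mitochondrial import receptor (r = 0.72, rho = 0.72), and THAP11 (r = 0.71, rho = 0.59). They were picked as the highest of all genes, so no p is given. Without control replicates 1 and 8 their r lay between 0.61 and 0.78. Their differences between the groups were small, from -0.24 ± 0.30 (SE) for LTF to 0.13 ± 0.09 for LURAP1L, none past the threshold. GPC3, the nearest of the other heparan sulfate genes, was at rank 1348 in that order and HSPG2 at rank 7153.

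Further genes of the pathway were taken from lists of its steps. Of 56 genes of linkage, chain start, modification, precursors, core proteins and lysosomal breakdown, 23 were measured by 26 probe sets. None of the 26 passed in either direction (limma, smallest adjusted p = 0.188). An unadjusted p under 0.05 was found for 4 that were higher and 2 that were lower, together 23.1% of them beside 13.7% of all probe sets (6.42% higher and 7.32% lower). The median difference was -0.03.

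Precursor genes supply the sugar and the sulfate donor. Of 6 measured, 0 passed and 2 were higher at an unadjusted p under 0.05, beside 6.42% of all probe sets. PAPSS1, which makes the sulfate donor used by sulfotransferases, read 9.36, 9.60 and 9.91 (lowest, median, highest) in shunt lambs and 8.92, 9.31 and 9.61 in control lambs. All 8 shunt lambs lay above the control mean, as in 5.33% of all probe sets, but the ranges overlapped. The difference of 0.34 ± 0.09 (SE) had an adjusted p = 0.188. UGDH, which makes the glucuronic acid precursor, averaged 9.14 ± 0.20 in shunt and 8.94 ± 0.16 in control (SD, n = 8 each), a difference of 0.21 ± 0.09 (adjusted p = 0.320). UGP2, which makes UDP-glucose, differed by 0.11 ± 0.07, and the nucleotide sugar transporter SLC35D2 by -0.13 ± 0.08.

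The enzymes that start and modify the chain did not differ beyond their spread. All 7 of their probe sets had a difference below 0, down to -0.08, where 44.9% of all probe sets were above 0. XYLT2, a xylosyltransferase that attaches the first sugar, differed by -0.08 ± 0.06 (SE), and B3GAT3, which finishes the linkage region, averaged 9.02 ± 0.11 in shunt and 9.02 ± 0.06 in control (SD, n = 8 each). EXTL1 differed by -0.05 ± 0.07 and -0.01 ± 0.07 with its probe sets. NDST2, an enzyme that exchanges acetyl for sulfate groups, differed by -0.07 ± 0.07, the sulfotransferase HS3ST5 by -0.07 ± 0.09, and the epimerase GLCE by -0.04 ± 0.16. Adjusted p of the 7 ran from 0.541 to 0.984 (limma), and 0 had an unadjusted p under 0.05, beside 13.7% of all probe sets.

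Of 7 further core proteins with 8 probe sets, 0 passed, while unadjusted p was under 0.05 for 1 that was higher and 2 that were lower, beside 6.42% and 7.32% of all probe sets. COL18A1, a basement membrane collagen that carries heparan sulfate, averaged 4.96 ± 0.13 in shunt and 4.78 ± 0.11 in control (SD, n = 8 each), a difference of 0.18 ± 0.06 (SE, adjusted p = 0.253) at percentile 11.6 of the probe sets. The glypican GPC1 read 8.06, 8.21 and 8.29 (lowest, median, highest) in shunt lambs and 8.19, 8.30 and 8.49 in control lambs. Its difference was -0.13 ± 0.05 (adjusted p = 0.318), and that of the glypican GPC4 was -0.18 ± 0.08 (adjusted p = 0.361). SRGN, the core protein serglycin of blood cell granules, differed by 0.09 ± 0.06.

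In lysosomal breakdown 0 of 5 probe sets of 4 genes passed (limma). GUSB, the beta-glucuronidase, was higher at an unadjusted p of 0.02, where 6.42% of all probe sets were higher under 0.05. It averaged 8.01 ± 0.18 in shunt and 7.82 ± 0.11 in control (SD, n = 8 each), a difference of 0.18 ± 0.07 (SE, adjusted p = 0.293). SGSH, the sulfatase that removes N-linked sulfate, differed by 0.09 ± 0.06, GLB1 by 0.10 ± 0.09 and NAGLU by -0.06 ± 0.09. SULF2 belongs to the sulfatases, whose active site SUMF1 completes. SUMF1 had no probe set with its symbol, and for ARSA, ARSB, ARSK and SUMF2 0 of 5 probe sets passed (limma, smallest adjusted p = 0.303). Of these 5, 1 was lower with unadjusted p = 0.0231 (limma), where 7.32% of all probe sets were lower under 0.05. The lysosomal sulfatases ARSA and ARSB differed by -0.11 ± 0.06 and 0.03 ± 0.20, and ARSK by -0.25 ± 0.14. SUMF2, a relative of SUMF1, differed by -0.27 ± 0.11 (adjusted p = 0.303) with one probe set and by -0.03 ± 0.08 with a brighter one.

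**Figure D3:**
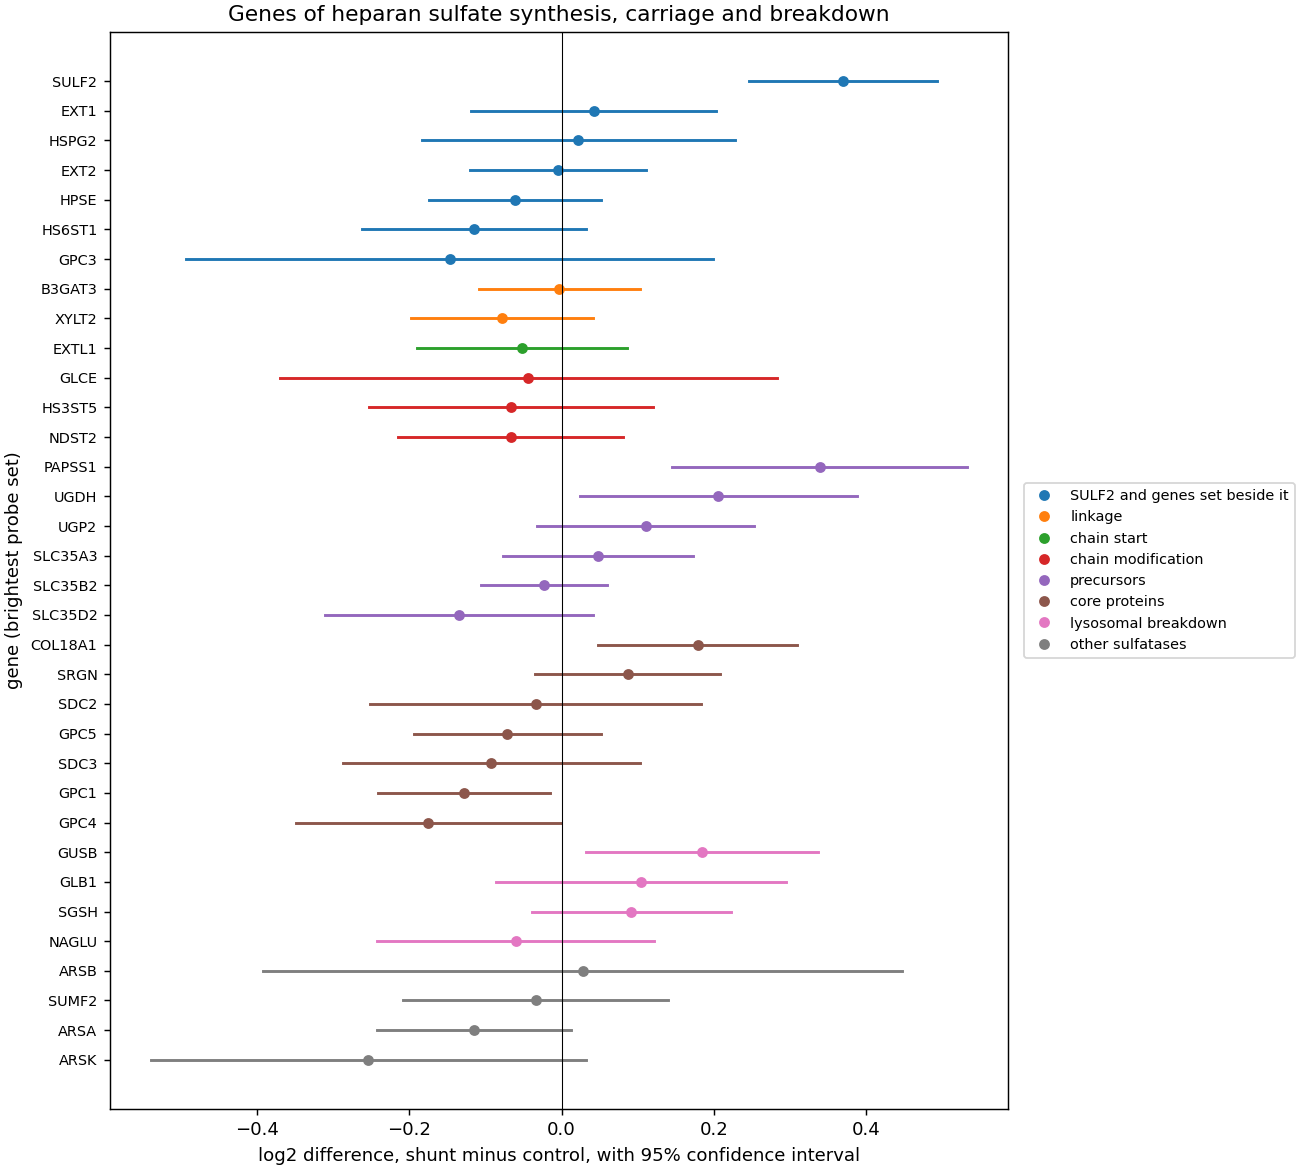
Log2 difference, shunt minus control, with its 95% confidence interval from limma, for 34 genes read by their brightest probe sets. SULF2 and the 6 genes set beside it share a colour, and the others are coloured by list. The interval lies above 0 for SULF2, PAPSS1, UGDH, COL18A1 and GUSB and below 0 for GPC1 and GPC4, and it holds 0 for the other 27. SULF2 was selected on this difference, and 0 of the other 33 passed after adjustment over all probe sets.

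Markers of the cell types of the lung were read beside SULF2, where 6.42% of all probe sets were higher and 7.32% lower with unadjusted p under 0.05. The ranges of every list mean overlapped between the groups. The mean of 8 endothelial markers ran from 9.50 to 9.75 in shunt lambs and from 9.37 to 9.59 in control lambs. Of their 13 probe sets 1 passed, a PECAM1 probe set (0.35 ± 0.06, SE, adjusted p = 0.0384), and 6 were higher at an unadjusted p under 0.05. Both probe sets of VWF, KDR and CDH5 and that of TIE1 were not. Those of VWF and KDR were dim, at percentiles 14.1 and 12.7 for VWF and 3.5 and 29.1 for KDR. The mean of 6 smooth muscle markers ran from 10.44 to 10.77 in shunt and from 10.19 to 10.76 in control, with 0 of 7 probe sets passing (smallest adjusted p = 0.226) and 4 higher at an unadjusted p under 0.05. CNN1, a smooth muscle marker, differed by -0.18 ± 0.09 (SE). The mean of 4 lung epithelial markers ran from 11.63 to 11.97 in shunt and from 11.72 to 12.07 in control, with 0 of 6 probe sets passing (smallest adjusted p = 0.115) and 3 that were lower with unadjusted p under 0.05. The 6 neutrophil markers ran from 6.37 to 6.60 in shunt and from 6.37 to 7.05 in control, with 3 of 8 probe sets lower by the same measure, while fibroblast markers had 1 of 10 higher and macrophage markers 1 of 4 higher. T cell markers had 1 of 9 probe sets lower, and the 2 of mesothelium and 7 of red blood cells had none at that level in either direction. The part of these cell types in the SULF2 difference was not tested.

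Within groups the SULF2 level had r = 0.27 with the endothelial mean, 0.28 with the smooth muscle mean, -0.10 with the fibroblast mean and -0.49 with the epithelial mean over 16 lambs (rho 0.34, 0.24, -0.16 and -0.49). Permutation p was 0.34, 0.33, 0.74 and 0.07 for r and 0.21, 0.39, 0.56 and 0.072 for rho, and over the 9 marker lists compared the smallest adjusted p was 0.59 for r and 0.34 for rho. Without control replicates 1 and 8 the 4 values of r were 0.23, 0.21, 0.05 and -0.44. For macrophage markers r was 0.30 (permutation p = 0.28) and rho 0.30 (permutation p = 0.27), and r was 0.55 without those lambs. For T cell markers r was 0.25 (permutation p = 0.35) and rho 0.46 (permutation p = 0.075), and r was 0.28 without them. The neutrophil, mesothelium and erythroid means had r = 0.04, -0.23 and -0.20 and rho = -0.10, -0.31 and -0.37 (permutation p from 0.18 to 0.89), with r = 0.38, -0.18 and -0.19 without those lambs.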

How the data were processed

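Log2 values deposited by the authors came from RMA, per the submitters' processing notes. No RMA version was given. The table held 24128 probe sets, of which 112 manufacturer controls were left out. Of the 24016 tested, 13292 had 1 gene symbol, 86 several and 10638 none. Symbols are those of the platform annotation. Groups were tested by limma 3.58.1 under R 4.3.3 (lmFit and eBayes, two-sided, no covariate), adjusted over all probe sets at 0.05. Correlations used levels minus the group mean and 100000 two-sided permutations of lambs within groups (Python 3.11.15), adjusted within each family. The genes and lists were chosen with earlier results of these data known. Correlations between probe sets of 1 gene and with marker means were added after seeing the data. Text names all probe sets of the 7 genes, up to 4 genes per list by smallest p, and the 6 genes most correlated with SULF2. In simulated data of 24016 probe sets the fit recovered 30 of 67 changes of 0.3, 61 of 67 of 0.6 and 64 of 66 of 1 on the log2 scale, with 6 false calls. There each probe set was drawn independently with normal noise. Noise shared between probe sets was not modelled, so these rates need not hold for the real arrays. Precision is limited by the number of arrays. No probe or gene sequence was used here. Alternatives were the replicate block, a filter on dim probe sets, other normalizations, array weights, another prior, the XIST level as a covariate, 1 probe set a gene, a threshold of 0.10 and each array left out. Plots were drawn with matplotlib 3.10.9.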

Additional observations from a re-analysis of the deposited data

Results flagged for a closer look

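In each of the 20 sets of 8 values of the 10 probe sets, the gap between an extreme lamb and its neighbour was divided by the range of the group. In 2 sets this ratio was above Dixon's 95% critical value, where chance gives about 1. Both were control replicate 5 in EXT1. With the brightest EXT1 probe set it read 9.80, against 9.19 to 9.44 in the other controls (ratio of gap to range 0.594), and with the second EXT1 probe set it read 5.90, against 5.01 to 5.26 (ratio 0.718). The third EXT1 probe set read 4.84 in this lamb, the lowest of the controls.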

How the results depend on the processing

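The SULF2 difference stayed between 0.343 and 0.406 over 25 alternatives, and its adjusted p ran from 0.00848 to 0.146 (limma). The replicate block, the filter on dim probe sets, the other prior and 1 probe set a gene cannot change this difference. It was 0.369 in each of them. Of the other 9 heparan sulfate probe sets, 0 passed in any of their alternatives. With SULF2 as the call, 1 of the 10 probe sets passed as higher; the number was 0 with the replicate block and ran from 0 to 1 when 1 array was left out. Over all probe sets, 16 higher and 1 lower became 0 and 0 with the replicate block (limma, with 1419 higher and 1483 lower at p under 0.05 before adjustment), 9 higher after quantile normalization again, 25 higher after centring on array medians, 36 and 9 with array weights, 6 and 2 with 1 probe set a gene, and 44 and 11 at a threshold of 0.10. The count of lower calls was 3 without the dimmest 25% of probe sets, 2 with a trended and robust prior and 4 with the XIST level as a covariate. Leaving out 1 array gave 6 to 53 higher and 0 to 22 lower, both highest when shunt replicate 1 was the one left out. The labels do not say whether the replicate numbers pair the lambs. Correlations of same-numbered lambs ran from -0.259 to 0.222, over 0.1 in 2 of 8 pairs, which cannot decide it. Differences near 0 changed sign. HSPG2 was -0.0325 with array weights and ran from -0.0467 to 0.0611 with 1 array left out. EXT2 was 3.69e-05 after quantile normalization again, 0.0119 after cyclic loess, 0.0184 after centring and 0.0114 with array weights, and ran from -0.0339 to 0.0165 with 1 array left out. The dimmer HPSE probe set was 0.000669 after quantile normalization again and 0.00414 after cyclic loess, and the second EXT1 probe set ran from -0.0763 to 0.0499 with 1 array left out. The cause was not tested. Of the 6 correlations with SULF2, 0 passed in each of the 20 alternatives. Signal over background is unknown, which limits what the dim probe sets of SULF2, HPSE and EXT1 can show.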

Other observations

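Enzymes of chondroitin and dermatan sulfate, the sulfated chains that share the linkage region with heparan sulfate, were measured by 18 probe sets of 10 genes. None passed (limma, smallest adjusted p = 0.147), while unadjusted p was under 0.05 for 4 that were higher and 0 that were lower, or 22.2% beside 13.7% of all probe sets. CHST7, a chondroitin sulfotransferase, averaged 9.92 ± 0.29 in shunt and 9.47 ± 0.20 in control (SD, n = 8 each) with its brightest probe set, a difference of 0.45 ± 0.11 (SE). Its other 3 probe sets differed by 0.32 ± 0.10, 0.09 ± 0.06 and 0.02 ± 0.06. CHSY1, a chondroitin synthase, differed by 0.28 ± 0.11 with the brightest probe set and by -0.13 ± 0.13 and -0.07 ± 0.09 with the others named. CSGALNACT2 differed by 0.26 ± 0.11 and -0.01 ± 0.09, and DSE, a dermatan epimerase, by 0.17 ± 0.08.

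Growth factors and chemokines that bind heparan sulfate were measured by 26 probe sets of 10 genes, of which 0 passed (smallest adjusted p = 0.0731), while unadjusted p was under 0.05 for 3 that were higher and 2 that were lower, or 19.2% beside 13.7% of all probe sets. FGF2 differed by 0.51 ± 0.10 (SE) with the dimmer of its probe sets and by -0.10 ± 0.35 with the brighter. PTN, a heparin-binding cytokine, averaged 10.37 ± 0.33 in shunt and 9.73 ± 0.48 in control (SD, n = 8 each), a difference of 0.64 ± 0.18 (adjusted p = 0.198). The brighter VEGFA probe set averaged 12.57 ± 0.20 in shunt and 12.77 ± 0.12 in control, a difference of -0.20 ± 0.08 (adjusted p = 0.302), and the other differed by -0.15 ± 0.10. The chemokine CXCL12 averaged 8.46 ± 0.21 in shunt and 8.08 ± 0.40 in control (SD, n = 8 each), a difference of 0.38 ± 0.14 (adjusted p = 0.273). For CXCL12, 8 of 8 shunt lambs were over the mean of the controls, as in 5.33% of all probe sets. SHH, the second gene with a lower probe set, was named after its values were seen and differed by -0.27 ± 0.12 (adjusted p = 0.348) with that probe set and by 0.06 ± 0.06 with a brighter one.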
